A study of Rattus norvegicus with 62 samples.

Results

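Of the 62 heart muscle arrays of the series, the 10 described here came from male Wistar rats given rosiglitazone by mouth at 10 mg/kg once a day during 14 days. They were chosen by their labels alone: 5 samples were labelled 24 h and 5 samples 6 h, and all probe sets were read. The titles do not say whether these hours run from the first dose or the last. The number of doses before each sample is therefore not settled here, and neither is whether dosing had ended. The groups set beside them were rats given vehicle, also listed with 14 treatment days (6 arrays at 24 h and 4 arrays at 6 h). Rats given 80 mg/kg (5 arrays at 24 h and 5 at 6 h) were set beside them too. Arrays at 168 h and 336 h entered the fit but are not described. Whether each sample was a separate animal is not in the labels, so the spread behind each p-value may be partly technical. The hour of the day at which hearts were taken is not in the labels; were all animals dosed at 1 hour, the 2 times would also be different hours, and time since the dose and hour of the day cannot be told apart at 10 mg/kg alone.

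Rosiglitazone is a drug for type 2 diabetes that activates the nuclear receptor PPARγ, which in fat cells and in the endothelium of small vessels switches on genes for the uptake and transport of fatty acids. The heart also has its own circadian clock. BMAL1, paired with CLOCK or NPAS2, switches on the Per and Cry genes, whose proteins shut that pair off, and it also switches on Nr1d1 and Nr1d2, whose proteins (REV-ERBα and REV-ERBβ) repress Bmal1. Output factors such as DBP, TEF and HLF carry the rhythm to other genes through an element called the D-box.

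At 24 h compared with 6 h, Bmal1 was 2.80-fold higher and the clock output genes Dbp and Bhlhe41 were 2.56-fold and 1.65-fold lower, and the same genes moved in the same direction in vehicle hearts. For the drug genes Rbp7, Gpihbp1 and Fabp4, all 5 arrays at 24 h lay below 4 of the 5 arrays at 6 h, but the difference did not pass the test with all arrays in. The atrial gene Myl7 was at a log2 level of 9 or more in 0 of 5 hearts at 24 h and in 4 of 5 at 6 h, replicates 1, 3, 4 and 5. The 4 arrays at 6 h with high drug genes were replicates 1, 2, 3 and 4, so the sets were largely but not wholly the same.

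All values are log2 signals after quantile normalization, which gives every array the same distribution, so a difference is set against the bulk of the array. On the deposited scale, without this step, the median probe set was lower by 0.12 at 24 h than at 6 h at 10 mg/kg (difference −0.12). The median deposited signal ran from 32.9 to 64.6 at 24 h and from 42.7 to 70.3 at 6 h at 10 mg/kg. Rank correlations were 0.891 to 0.954 between arrays of the same time and 0.889 to 0.955 between arrays of different times. A grouping of all 62 arrays into 3 clusters on their first 2 principal components put the 24 h arrays at 2, 1 and 2 and the 6 h arrays at 2, 0 and 3 in the clusters 1, 2 and 3. The defining heart muscle genes were alike: 7 cardiomyocyte genes averaged 13.56 ± 0.02 at 24 h and 13.57 ± 0.03 at 6 h (SD, n = 5 each). White fat had few detected markers, since Adipoq, Plin1, Cidec and Lep lay below the detection filter and only 2 of 7 passed it.

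Myl7, the atrial form of the regulatory myosin light chain and scarce in ventricle, differed widely among the arrays. Its log2 signal at 24 h was 8.06, 8.05, 8.71, 7.87 and 7.59 in replicates 1, 2, 3, 5 and 6, against 11.50, 6.08, 11.22, 12.22 and 9.32 in replicates 1 to 5 at 6 h. The 24 h arrays lay close together, while the 6 h arrays held the highest 4 values and the lowest 1, so the groups overlapped. The mean difference, 24 h minus 6 h, was −2.01 (SE 1.01, 95% interval −4.05 to 0.02, limma adjusted p = 0.929). Myl4, the atrial essential light chain, followed it at 7.62, 7.11, 7.42, 6.98 and 6.91 at 24 h, against 10.38, 5.83, 10.11, 10.89 and 7.77 at 6 h. Replicates 1, 3 and 4 at 6 h stood apart in both genes, and replicate 5 was intermediate. Nppa, which encodes atrial natriuretic peptide, differed by −1.73 and Sln, which encodes the calcium pump inhibitor sarcolipin, by −1.59; neither passed the test (limma adjusted p = 0.663 and 0.978). Set against replicate 2 alone, the 6 h array of lowest level, Myl4 and Sln were instead 1.38 and 1.49 higher at 24 h. Myl2, the ventricular light chain, differed by 0.04. Of the 14 measured genes on a list of atrial markers 3 were higher and 11 lower at 24 h, 0 passed the test, and their mean log2 signal ran from 7.87 to 8.26 at 24 h and from 7.66 to 9.07 at 6 h. High Myl7 was not particular to the dose: a level of 9 or more was found in 1 of 4 vehicle arrays at 6 h, in 0 of 6 vehicle arrays at 24 h, in 3 of 5 arrays at 80 mg/kg at 24 h and in 2 of 5 at 80 mg/kg at 6 h. In whole tissue, more atrial muscle in a piece and more atrial RNA per cell cannot be told apart.

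**Figure D1:**
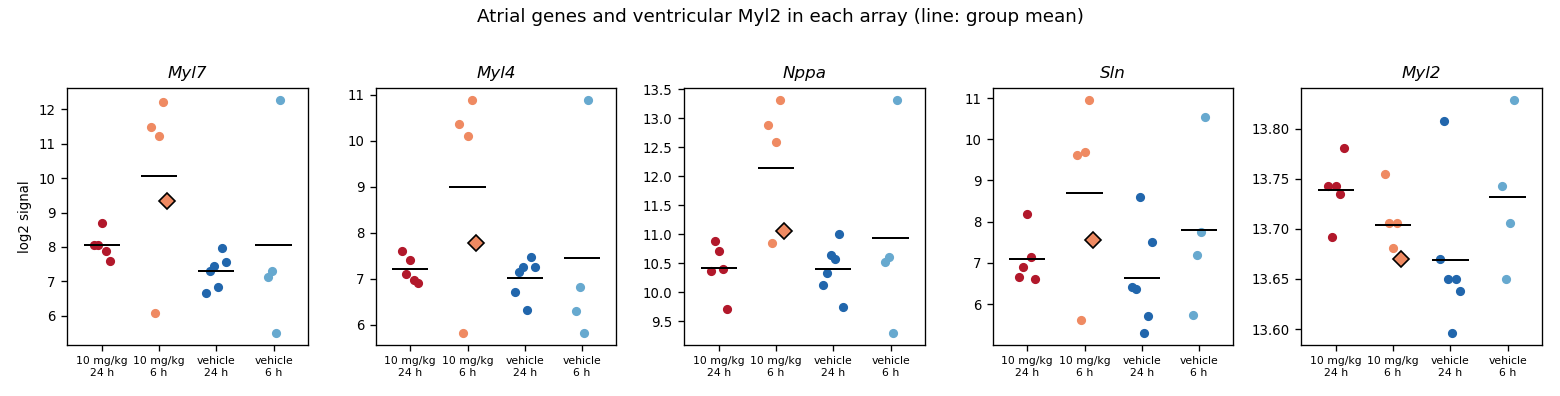
Log2 signal of 4 atrial genes and of ventricular Myl2 in each array at 10 mg/kg and in vehicle, 24 h left of 6 h; points are arrays, lines are group means and the diamond is replicate 5 at 6 h. At 10 mg/kg, Myl7 lay between 7.59 and 8.71 in the 5 arrays at 24 h and between 6.08 and 12.22 in the 5 arrays at 6 h, while Myl2 was level.

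The array labelled 10 mg/kg, 6 h, replicate 5 went against the other 4 of its group in the drug genes. Its Rbp7 signal was 7.43, against 10.34 to 11.12 in the other 4, and lay below all 4 vehicle arrays of 6 h (7.44 to 8.42). Its Fabp4 (11.66) and Gpihbp1 (7.24) were also below every vehicle array of 6 h. In the clock genes Per2 and Nr1d2 it lay above every 24 h array at 10 mg/kg, as did the other 4. Per2 was 7.80 in it and 7.37 to 8.21 in the other 4. Nr1d2 was 10.49 in it, above the 10.21 to 10.32 of the other 4. Results on drug genes that use it are therefore given with and without it. The array was singled out by the values of these same genes. Their p-values and calls without it follow in part from that choice and are descriptions only.

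Over all 18625 probe sets tested, 19 passed an adjusted p of 0.05 for 24 h against 6 h at 10 mg/kg, which is 0.102% of them; 16 were higher at 24 h (0.0859%) and 3 were lower (0.0161%). An unadjusted p under 0.05 was reached by 979, or 5.26%. Of the 19, 15 had 1 gene, 14 different genes in all, and 4 had no gene listed. The arrays of the 2 times did not overlap at all for 14 of the 19, against 143 of all 18625 probe sets (0.768%). On the deposited scale 0 were called, with 358 at an unadjusted p under 0.05, and 0 were called with only these 10 arrays in the fit, with 698 at that unadjusted p. Vehicle hearts had 42 calls between the same times (0.226%), 28 higher at 24 h (0.15%) and 14 lower (0.0752%). Hearts at 80 mg/kg had 24 (0.129%), 11 higher (0.0591%) and 13 lower (0.0698%). These 3 comparisons share no array. Of the 19 probe sets called at 10 mg/kg, 18 differed in the same direction in vehicle, where 12 were called, and 17 did so at 80 mg/kg, where 6 were called. The shared calls were 63.16% of those at 10 mg/kg and 28.57% of those in vehicle. Over all probe sets the 2 differences were nearly unrelated (r = 0.02 across probe sets between 10 mg/kg and vehicle, with 50.51% of the same sign), a description only, since all probe sets share the same arrays. The vehicle times were unevenly spread over clusters 1, 2 and 3, at 1, 0 and 5 arrays at 24 h and 3, 0 and 1 at 6 h. With clusters as a block vehicle hearts had 33 calls, 24 of them among the 42, and 1157 at an unadjusted p under 0.05, against 2115 without it. The part of the clusters in this r was not tested.

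The clock genes whose promoters hold a known clock element in the 250 bases before the RefSeq start (build GRCr8) are shown first, 1 for each kind of element found, since the genes differed in opposite directions. The Bmal1 window, chr1:176766078-176766327 on the plus strand, holds an element for REV-ERB and ROR receptors (in capitals). The Per2 window, chr9:99496994-99497243 on the minus strand, holds a D-box, TTATGTAA. The Bhlhe41 window, chr4:180569356-180569605 on the minus strand, holds an E-box, CACGTG, to which the BMAL1 pair binds.
Bmal1: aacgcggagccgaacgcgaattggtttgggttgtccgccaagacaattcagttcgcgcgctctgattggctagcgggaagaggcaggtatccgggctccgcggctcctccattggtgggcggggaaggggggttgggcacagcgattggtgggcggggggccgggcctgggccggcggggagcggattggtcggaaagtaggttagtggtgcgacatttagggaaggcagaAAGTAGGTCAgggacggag
Per2: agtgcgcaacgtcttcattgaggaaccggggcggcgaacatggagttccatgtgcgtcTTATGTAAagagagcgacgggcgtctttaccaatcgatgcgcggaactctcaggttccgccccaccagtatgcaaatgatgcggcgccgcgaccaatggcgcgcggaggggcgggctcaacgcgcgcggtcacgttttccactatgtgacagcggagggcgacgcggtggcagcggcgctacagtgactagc
Bhlhe41: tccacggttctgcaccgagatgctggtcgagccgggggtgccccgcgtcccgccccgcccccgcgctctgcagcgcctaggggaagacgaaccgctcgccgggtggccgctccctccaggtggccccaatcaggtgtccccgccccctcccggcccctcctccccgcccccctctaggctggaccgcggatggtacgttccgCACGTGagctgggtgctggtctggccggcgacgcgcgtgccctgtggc
Both strands were searched in 27457 promoter windows of this length. The receptor element was found in 0.557% of them, TTATGTAA in 0.816%, TTACGTAA in 0.113% and CACGTG in 5.79%. Of the 20 clock and output genes with a window, 5 held CACGTG (Tef, Bhlhe40 and Klf15 among them), 1 held TTATGTAA, 0 held TTACGTAA and 1 held the receptor element. Outside the clock, the windows of Slc41a3 and Asb2 also held CACGTG, 199 and 232 bases before the start. A match is a run of letters and not a shown binding site.

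Among the activators of the clock, Bmal1 was the clearest. Its log2 signal at 24 h was 6.77, 7.21, 6.32, 6.57 and 7.05, against 5.41, 5.76, 4.28, 5.26 and 5.77 at 6 h. Every 24 h array lay above every 6 h array, and the difference was 1.49 (SE 0.27, limma adjusted p = 0.0065). Without replicate 3 at 6 h, the lowest array, the difference was 1.23 and the adjusted p was 0.0667. Npas2, an alternative partner of BMAL1, differed by 1.56 but with a wide interval of 0.48 to 2.65, and it did not pass (adjusted p = 0.613). Its 24 h arrays were at 7.09, 6.98, 5.82, 6.61 and 7.05, against 3.19, 5.23, 4.70, 6.07 and 6.55 at 6 h, so the groups overlapped. Clock was measured by 3 probe sets, which did not act alike. One of them was called at 0.66 (adjusted p = 0.0218), while the brightest was 0.33 higher without passing (adjusted p = 0.693) and the faintest differed by 0.02.

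In the repressing limb, 0 of the 6 genes measured passed the test over all probe sets. Per2, a repressor of the BMAL1 pair, was at 6.66, 6.43, 7.22, 6.88 and 6.05 at 24 h, against 7.57, 7.37, 8.21, 7.99 and 7.80 at 6 h. The arrays of the 2 times did not overlap, and the difference was −1.14 (SE 0.36, unadjusted p = 0.00286, limma adjusted p = 0.503). Nr1d2 was at 9.67, 9.72, 9.62, 10.03 and 9.83 at 24 h, against 10.27, 10.25, 10.32, 10.21 and 10.49 at 6 h. These groups did not overlap either, with a difference of −0.53 (adjusted p = 0.754). Other probe sets of Nr1d2 gave −0.72 and −1.37, also without passing (limma adjusted p = 0.308 and 0.968). Its sister Nr1d1 differed by 0.13 (interval −0.55 to 0.81), and the difference between the sisters was not tested. Cry1 differed by 0.39, Cry2 by −0.56 and Per1 by −0.61, with limma adjusted p of 0.864, 0.884 and 0.999. Of 16 listed core clock genes 12 were measured, of which 7 were higher and 5 lower at 24 h; 1 was called, Bmal1, since Clock is read here from its brightest probe set (9 of all 10557 genes, 0.0853%, were called higher). Their median difference was 0.07, against 0.0086 over all 10557 genes. Per3 fell below the detection filter.

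Among the output factors, Dbp, an activator through the D-box, was at 7.71, 7.95, 8.62, 8.17 and 7.45 at 24 h, against 9.13, 8.87, 9.75, 9.70 and 9.23 at 6 h. All 5 arrays at 24 h lay below all 5 at 6 h, and the difference was −1.36 (SE 0.29, limma adjusted p = 0.0264). Bhlhe41 (DEC2), a repressor that competes for the E-box, was at 8.37, 8.20, 8.60, 8.24 and 8.31 at 24 h, against 9.43, 8.99, 8.94, 9.02 and 8.99 at 6 h. It too did not overlap and was called at −0.73 (adjusted p = 0.00927). The relatives of DBP pointed the same way without passing: Hlf differed by −0.62 and its groups did not overlap (adjusted p = 0.468), and Tef differed by −0.60 with overlap (adjusted p = 0.214). Nfil3, which represses through the D-box, and Bhlhe40 (DEC1) were 0.27 and 0.40 higher, both with an adjusted p of 0.999. Of the 11 listed output genes, all measured, 3 were higher and 8 lower at 24 h, 2 were called lower and the median difference was −0.60. Over all 10557 genes 3 were called lower (0.0284%) and the median was 0.0086. These lists were drawn up with earlier results on these arrays known, so their counts are descriptions.

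**Figure D2:**
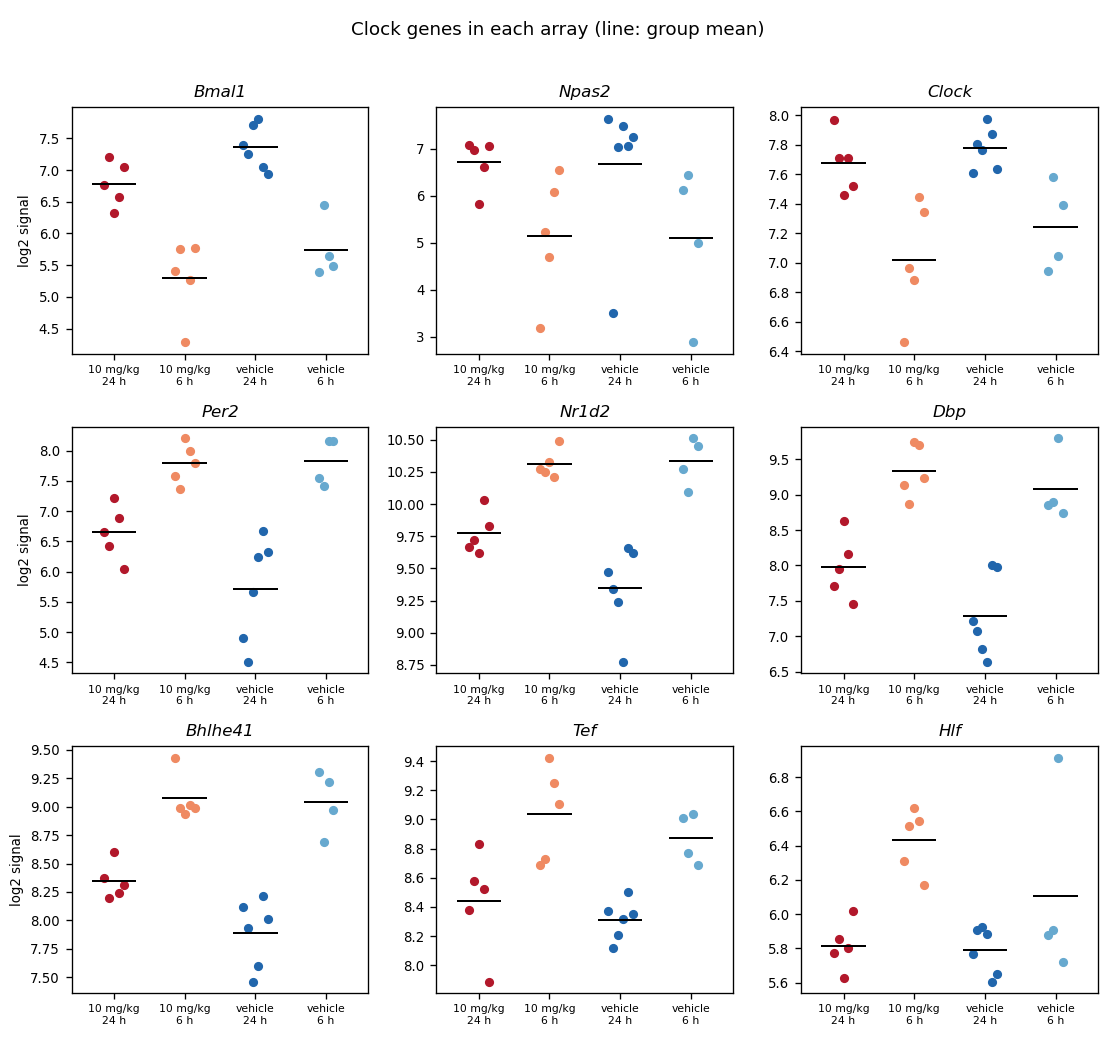
Log2 signal of 9 clock genes in each array at 10 mg/kg and in vehicle, 24 h left of 6 h; points are arrays and lines are group means, and Clock is its called probe set. Bmal1 was higher at 24 h in all 5 arrays at 10 mg/kg, and Per2, Nr1d2, Dbp, Bhlhe41 and Hlf were lower in all 5.

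In vehicle hearts 10 of the 12 core clock genes and 8 of the 11 output genes differed in the same direction as at 10 mg/kg, beside 5420 of all 10557 genes. Bmal1, Per2, Nr1d2, Dbp and Bhlhe41 were called there, beside 0.226% of all probe sets. At 80 mg/kg the same direction held for 10 of the 12 and 10 of the 11, beside 6216 of all 10557. Bmal1 was called at 80 mg/kg (limma adjusted p = 0.0311), while Per2, Nr1d2, Dbp and Bhlhe41 were not (0.0768, 0.763, 0.674 and 0.788). Bmal1 differed by 1.49 at 10 mg/kg and by 1.61 in vehicle (adjusted p = 0.00107 in vehicle), and Dbp by −1.36 at 10 mg/kg and −1.79 in vehicle (adjusted p = 0.000741). Per2 differed by −1.14 at 10 mg/kg and by −2.11 in vehicle, where it passed (adjusted p = 0.00129), and Bhlhe41 by −0.73 at 10 mg/kg and −1.16 in vehicle (adjusted p = 9.4e-07 in vehicle). Nr1d2 was called in vehicle at −0.98 (adjusted p = 0.0154). Bhlhe40 and Nr1d1 differed in opposite directions, by 0.40 and 0.13 at 10 mg/kg and by −0.71 and −0.19 in vehicle. The test of the difference between 10 mg/kg and vehicle passed for none of these genes. Bhlhe40 had the largest value among the named clock genes, 1.11 (interval 0.22 to 2.003, unadjusted p = 0.0153, limma adjusted p = 0.732). The difference was 0.97 for Per2 (interval −0.08 to 2.01, unadjusted p = 0.0686), 0.43 for Bhlhe41 (0.04 to 0.82, unadjusted p = 0.0331, adjusted p = 0.733), 0.43 for Dbp (−0.41 to 1.27) and −0.13 for Bmal1 (−0.91 to 0.65). These intervals are wide beside the time differences themselves, so the clock genes are not shown to act alike with and without the drug. Per2 averaged 6.65 ± 0.45 in 10 mg/kg hearts and 5.72 ± 0.86 in vehicle hearts at 24 h (SD, n = 5 and 6). At 6 h it averaged 7.79 ± 0.33 in 10 mg/kg hearts and 7.82 ± 0.40 in vehicle hearts (SD, n = 5 and 4). The gap at 24 h was 0.93 and did not pass over all probe sets.

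The other called genes serve varied roles. Slc41a3, a member of a magnesium transporter family, had the smallest adjusted p: 9.69, 9.60, 9.56, 9.69 and 9.70 at 24 h, against 8.85, 8.86, 8.20, 8.97 and 9.06 at 6 h. The groups stood well apart, by 0.86 (SE 0.13, limma adjusted p = 0.000279), and vehicle (0.80) and 80 mg/kg (1.22) hearts differed likewise, both called. Tfrc, the transferrin receptor through which cells take up iron, was at 11.27, 10.98, 10.96, 11.21 and 11.17 at 24 h, against 10.76, 10.27, 10.24, 10.33 and 10.16 at 6 h. No arrays overlapped, both probe sets of the gene were called at 0.77 and 0.74, and vehicle hearts differed by 0.71. G0s2, an inhibitor of the triglyceride lipase ATGL, was 0.92 higher at 24 h at 10 mg/kg (adjusted p = 0.0144) and 1.29 higher in vehicle. Asb2, which encodes a subunit of a ubiquitin ligase in muscle, was 0.53 higher (adjusted p = 0.0175). Sphk2, one of the kinases that make sphingosine 1-phosphate, was 0.64 higher (adjusted p = 0.0264). Both genes differed by similar amounts in vehicle, at 0.60 and 0.82, and were called there. Slc38a2 lies outside the rule for names, which takes up to 10 called genes each way. It was called at 10 mg/kg at 0.39 (limma adjusted p = 0.00964), and also in vehicle at 0.43 and at 80 mg/kg at 0.35.

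In 4 further called genes the difference in vehicle was 0.17 or less. Gimap6, a GTPase of the immune-associated family, was at 8.37, 8.49, 8.60, 8.56 and 8.23 at 24 h, against 7.65, 8.03, 7.73, 7.69 and 7.89 at 6 h. The groups did not overlap and differed by 0.65 (limma adjusted p = 0.0065), against 0.17 in vehicle and −0.02 at 80 mg/kg. Gstcd was at 7.74, 7.31, 7.46, 7.72 and 7.78 at 24 h, against 6.88, 6.91, 6.94, 7.15 and 7.03 at 6 h. It differed by 0.62 at 10 mg/kg (adjusted p = 0.0144) and 0.02 in vehicle, and was called at 80 mg/kg at 0.58. Ptpn1, the phosphatase that dampens insulin and leptin receptor signals, was 0.67 higher (adjusted p = 0.0481), but its second probe set differed by −0.21, so the direction depends on the probe set. Ahctf1, a nuclear pore protein, was 0.50 lower (difference −0.50, adjusted p = 0.0248), and its other probe sets gave 0.01 and −0.36. The excess over vehicle was 0.48 for Gimap6, 0.60 for Gstcd, 0.65 for Ptpn1 and −0.52 for Ahctf1, and each had an adjusted p of 0.732 in that test. None is therefore shown to differ from vehicle.

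Slc41a3, Tfrc, Gimap6 and Bhlhe41 stayed called whichever 1 of the 10 arrays was left out, and Bmal1 in 9 of the 10. Without replicate 3 at 6 h the calls numbered 5, without replicate 1 at 24 h they numbered 6, without replicate 2 at 24 h 10 and without replicate 6 at 24 h 11. Within cluster 1 (2 arrays at 24 h and 2 at 6 h) and within cluster 3 (2 and 3) all 13 called probe sets within the rule for names kept their direction. They were called on these same arrays, and where the times did not overlap the direction was fixed in advance. This count is a description only. With Myl7 as a covariate 11 were called, of which 10 were among the 19. Without all arrays at a Myl7 level of 9 or more, only replicate 2 is left at 6 h; its spread is then taken from the other groups, and 32 were called, of which 1 was among the 19.

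**Figure D3:**
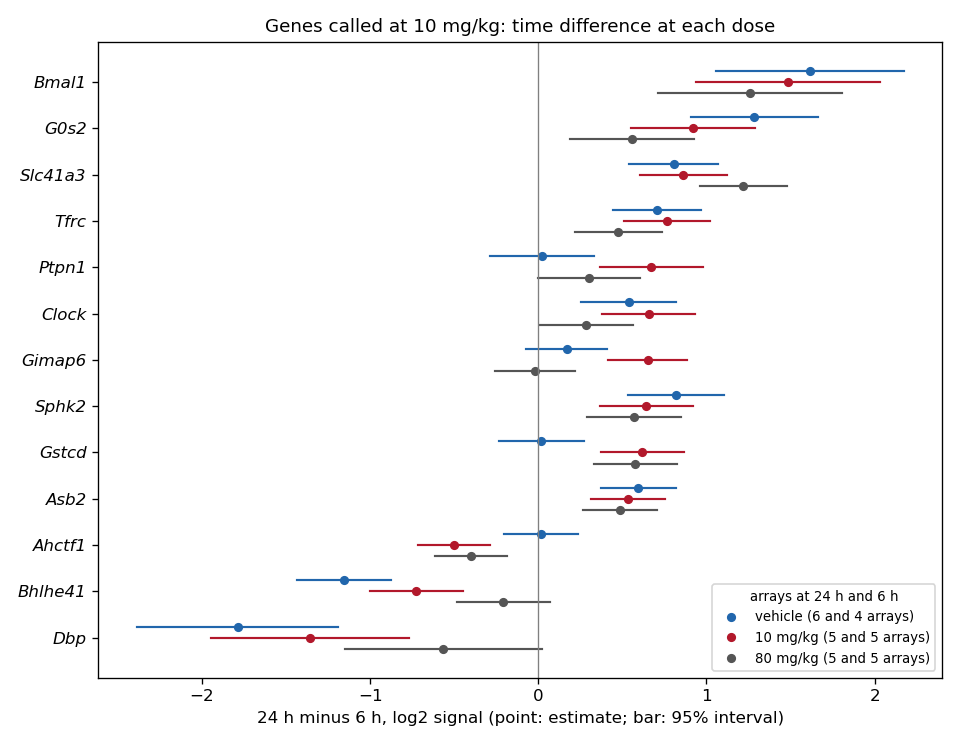
Difference between 24 h and 6 h on the log2 scale for the 13 genes called at 10 mg/kg and within the rule for names. Vehicle, 10 mg/kg and 80 mg/kg run from top to bottom within each gene, points are estimates and bars 95% intervals. Bmal1, G0s2, Slc41a3 and Tfrc lay to the right of 0 at every dose, and Gstcd, Ptpn1 and Ahctf1 lay at 0.02, 0.02 and 0.02 in vehicle.

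To follow the drug response, genes were taken that were called at 80 mg/kg against vehicle at both 168 h and 336 h, on arrays that are in none of the groups compared here. They were 8 probe sets: Rbp7, Gpihbp1, Fabp4, Fabp5, Hrct1, Ggta1, Aqp1 and 1 with no gene listed. Aqp1, which encodes a water channel of endothelium, was lower with the drug and the other 7 were higher. At 10 mg/kg, 0 of the 8 were called for 24 h against 6 h with all arrays in, beside 0.102% of all probe sets; 7 of 8 were lower at 24 h, and 6 of 8 had an unadjusted p under 0.05, beside 5.26% of all probe sets. Without replicate 5 at 6 h, 3 of the 8 were called, beside 0.113% of all probe sets, 7 of 8 were lower and 7 of 8 had an unadjusted p under 0.05, beside 5.69%. That array was singled out by members of this list, so the counts without it are not independent of the choice.

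Rbp7, a retinoid-binding protein gene of endothelium and a known PPARγ target, carried the largest difference. It was at 8.15, 8.91, 8.37, 8.92 and 8.83 at 24 h, against 11.11, 11.12, 10.83, 10.34 and 7.43 in replicates 1 to 5 at 6 h. All 24 h arrays lay below 4 of the 6 h arrays and above the remaining one. The difference was −1.53 (SE 0.40, interval −2.34 to −0.73, limma adjusted p = 0.177), a 2.89-fold lower signal. Without replicate 5 at 6 h, an array singled out by this gene among others, it was −2.22 and passed (adjusted p = 4.8e-05). Replicate 2 at 6 h, the array there without high Myl7, was at 11.12, next to 11.11 in replicate 1, where Myl7 was at 11.50. Replicate 5, with Myl7 at 9.32, had the lowest Rbp7 signal of the group. A relation of Rbp7 to Myl7 among these arrays was not tested. With replicate 2 as the sole array at 6 h the difference was −2.48, a value from 1 array that gives no spread among the 6 h hearts.

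Gpihbp1, which holds lipoprotein lipase on the vessel wall, was at 7.72, 8.13, 8.27, 8.15 and 8.27 at 24 h, against 9.15, 8.90, 9.48, 9.11 and 7.24 at 6 h. The pattern was that of Rbp7, with a difference of −0.67 with all arrays (adjusted p = 0.797) and −1.05 without replicate 5 (adjusted p = 0.0458). Fabp4, a fatty acid binding protein of fat and endothelium, was at 12.28, 12.02, 11.997, 12.07 and 12.05 at 24 h, against 12.93, 12.93, 12.90, 12.66 and 11.66 at 6 h. Here too only replicate 5 broke the separation: the difference was −0.53 with all arrays (adjusted p = 0.165) and −0.77 without it (adjusted p = 4.8e-05). Fabp5, a related binding protein, differed by −0.48 (adjusted p = 0.613), Ggta1, a galactosyltransferase, by −0.33 (adjusted p = 0.577) and Hrct1 by −0.21 (adjusted p = 0.946). These 3 did not pass without replicate 5 either, at −0.65, −0.41 and −0.35. Aqp1 differed by 0.18 (interval −0.08 to 0.43), and by 0.23 without replicate 5.

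Set against vehicle of the same hour, the difference at 10 mg/kg was smaller in size at 24 h than at 6 h in 8 of these 8 probe sets, with or without replicate 5 at 6 h, and this count was not tested. The share over all probe sets was not counted, but their median size was 0.129 at 24 h and 0.142 at 6 h. Aqp1, 1 of the 8, was at −0.06 at 24 h and −0.15 at 6 h (limma unadjusted p = 0.604 and 0.281), so it showed no clear response at either time. Rbp7 exceeded vehicle by 0.77 at 24 h (unadjusted p = 0.0509, limma adjusted p = 0.852) and by 2.21 at 6 h (unadjusted p = 3.5e-06, adjusted p = 0.0652). Gpihbp1 exceeded it by 0.39 at 24 h and 0.92 at 6 h, and Fabp4 by 0.23 and 0.63. Fabp5 and Hrct1 were at −0.07 and −0.03 at 24 h and at 0.52 and 0.47 at 6 h. Over all probe sets 0 were called at 24 h, with 1088 at an unadjusted p under 0.05 (5.84%), and 0 at 6 h, with 1196 (6.42%). Without replicate 5 at 6 h, 5 were called at 6 h, namely Rbp7 (2.89), Gpihbp1 (1.31), Fabp4 (0.87), Hrct1 (0.61) and Adamts4 (1.95), an aggrecan-cleaving protease; the last lies outside the rule for names and was singled out after its value was seen. Without vehicle replicate 3 at 6 h 6 were called at 6 h, and without vehicle replicate 5 or 6 of that time 1 each.

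At 24 h 1 vehicle array also stood apart. Vehicle replicate 4 had Rbp7 at 9.0015, above all 5 arrays at 10 mg/kg, while the other 5 vehicle arrays lay between 7.48 and 7.84, below all 5. Its Gpihbp1 was 8.63, against 7.17 to 7.89 in the other vehicle arrays. Without vehicle replicate 4 the excess of Rbp7 at 10 mg/kg at 24 h was 0.995 (unadjusted p = 0.0138, adjusted p = 0.992) and that of Gpihbp1 0.58, and 1 probe set was called, Kif3a at 1.91, named after its value was seen. Without vehicle replicate 2 at 24 h 2 were called.

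The loss of response itself, the difference between times at 10 mg/kg beyond that in vehicle, was called for 0 of 18625 probe sets (0%), with 1248 at an unadjusted p under 0.05 (6.7%) and a smallest adjusted p of 0.202. For Rbp7 it was −1.44 (interval −2.59 to −0.29, unadjusted p = 0.0151, adjusted p = 0.732). It was −0.53 for Gpihbp1 (−1.30 to 0.24), −0.40 for Fabp4 (−0.79 to −0.0022), −0.59 for Fabp5 (−1.06 to −0.12) and −0.49 for Hrct1 (−0.81 to −0.17). Without replicate 5 at 6 h it was −2.13 for Rbp7, −0.91 for Gpihbp1 and −0.64 for both Fabp4 and Hrct1, with adjusted p of 0.148, 0.707, 0.241 and 0.170. A loss of response between 6 h and 24 h was thus not detectable over all probe sets with these arrays, with or without that array; 1 probe set was called without vehicle replicate 3 at 6 h and 1 without vehicle replicate 6 at 6 h.

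At 80 mg/kg, set against the same vehicle arrays, Rbp7 exceeded vehicle by 2.95 at 24 h and 2.93 at 6 h, and Gpihbp1 by 1.70 and 1.48, all 4 called. Rbp7 ran from 10.001 to 12.001 at 24 h and from 10.66 to 11.21 at 6 h at that dose, and differed between the times by −0.07 (interval −0.88 to 0.73). Fabp4 exceeded vehicle by 0.73 at 24 h and 1.004 at 6 h, both called, and Hrct1 by 0.12 and 0.61, of which the second was called. The difference between times at 10 mg/kg beyond that at 80 mg/kg was −1.46 for Rbp7 (interval −2.60 to −0.32, adjusted p = 0.999), −0.75 for Gpihbp1 (−1.51 to 0.01) and −0.12 for Fabp4 (−0.51 to 0.27). Without replicate 5 at 6 h it was −2.14 for Rbp7 (−3.03 to −1.26, unadjusted p = 1.15e-05, adjusted p = 0.195), −1.14 for Gpihbp1 (−1.79 to −0.48) and −0.36 for Fabp4 (−0.66 to −0.064), the last 2 with an adjusted p of 0.999. By limma it was called for 0 of 18625 probe sets with all arrays (617 at an unadjusted p under 0.05) and for 0 without replicate 5 (746), so a dose dependence of the time difference was not shown.

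**Figure D4:**
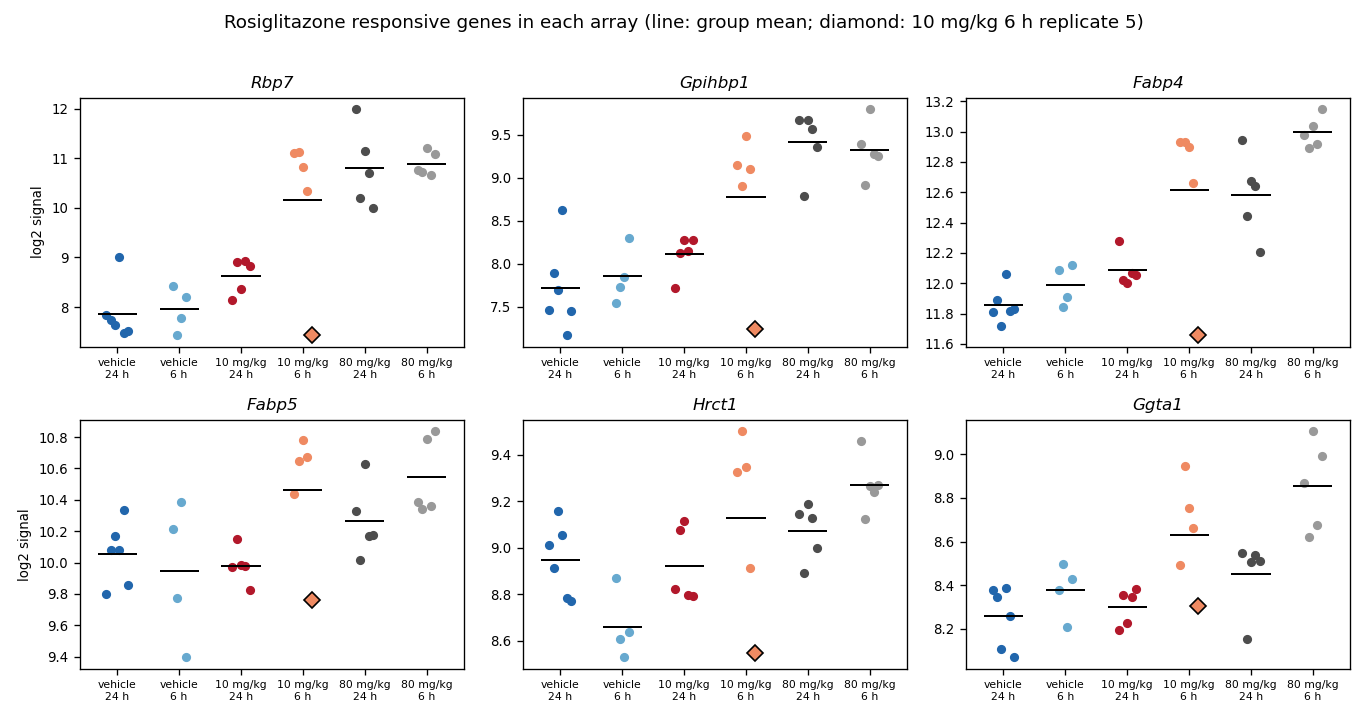
Log2 signal of 6 genes that respond to rosiglitazone in each array, by dose (vehicle, 10 and 80 mg/kg) with 24 h left of 6 h; points are arrays, lines are group means and the diamond is replicate 5 of 10 mg/kg at 6 h. At 10 mg/kg, Rbp7 lay between 8.15 and 8.92 at 24 h and between 10.34 and 11.12 in 4 of 5 arrays at 6 h, with the diamond at 7.43.

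Of 21 listed PPARγ targets 16 were measured, 5 higher and 11 lower at 24 h with 0 called and a median of −0.12. The list holds 4 of the genes already described, Rbp7, Gpihbp1, Fabp4 and Fabp5. Without replicate 5 at 6 h 3 members were called, Rbp7, Fabp4 and Gpihbp1, beside 0.113% of all probe sets. That array was singled out by these same 3 genes, so their calls follow in part from that choice and are descriptions only. The other 12 members were 5 higher and 7 lower with a median of −0.07 with all arrays and −0.04 without replicate 5, with 0 called in both. Of 30 listed PPARα and fatty acid oxidation genes 26 were measured, 13 higher and 13 lower with 0 called and a median of −0.01, and these counts were the same without replicate 5. Within the second list Pdk4, the kinase that turns off pyruvate oxidation, differed by −0.33 and Ucp3, a mitochondrial carrier, by 0.07, with −0.15 at its second probe set; without replicate 5 they differed by −0.50 and −0.09. Cd36, a fatty acid transporter, differed by −0.32 (interval −0.68 to 0.05, limma adjusted p = 0.971), and by −0.48 without replicate 5 (−0.85 to −0.11, adjusted p = 0.670). Endothelial markers, of which 8 of 9 were measured, split 4 higher and 4 lower with 0 called and a median of −0.0011, and their mean log2 signal was 8.66 ± 0.16 at 24 h and 8.71 ± 0.11 at 6 h (SD, n = 5 each). Of the 8, 2 had an unadjusted p under 0.05: Emcn, which encodes endomucin, at 0.21 with all 24 h arrays above all 6 h arrays, and Cldn5, which encodes a tight junction protein, at −0.48; both names lie outside the rule and were picked with their values in view. The part of endothelial content in the drug genes was not tested. Whether the atrial content of the 6 h arrays has a part in the differences of the clock or drug genes was not tested. A Myl7 level of 9 or more was found in 4 of 5 arrays at 6 h and in 0 of 5 at 24 h. The Myl7 covariate therefore overlaps with time, and leaving out high Myl7 arrays kept only replicate 2 at 6 h. Neither alternative can separate atrial content from time.

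The remaining lists held 0 calls each at 10 mg/kg. Of 19 measured lipid synthesis genes 14 were higher at 24 h (median 0.10), of 16 interferon genes 12 were higher (median 0.09), of 14 cell cycle genes 12 were lower (median −0.15) and of 16 heat and cold shock genes 13 were lower (median −0.09). Over all 10557 genes 5532 were higher and 5025 lower. Sarcomere genes, 17 measured, had a median of −0.0041, calcium and ion channel genes, 22 measured, −0.0045, extracellular matrix genes, 29 measured, 0.01, and glucose genes, 16 measured, 0.0089. Genes responsive to glucocorticoid and FoxO had a median of −0.04 over 21 and immediate early genes −0.02 over 21, and neither held a call.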

How the data were processed

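The deposited table holds 1 intensity signal per probe set and array for 62 arrays, made with GCOS and MAS5 per the submitters' processing notes; versions and target scale are not given in the sources used here, and the number of arrays limits the precision. AFFX control probe sets (57 of 31099) were left out, signals were taken to log2 and quantile normalized, and the 18625 probe sets with a mean at or above the 40th percentile (5.03) were kept. Genes came from GEO's platform annotation: 20832 probe sets had 1 gene, 436 several, and names were taken from the first kind. Promoter windows came from RefSeq, GRCr8; 20 of the 27 listed clock and output genes matched.

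limma 3.58.1 in R 4.3.3 fitted 12 dose and time means, with 50 residual degrees of freedom, two-sided moderated tests and Benjamini-Hochberg adjustment over all kept probe sets (adjusted p under 0.05 is a call). The fit was tested on simulated data. The lists and named genes were chosen with earlier results of these data known: up to 10 called genes each way, fixed clock, drug and atrial genes, and probe sets called at 80 mg/kg at both 168 h and 336 h. A list gene is read from its brightest probe set.

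Replicate numbers were not treated as pairs. Deviations of same-numbered arrays correlated at −0.29, −0.16, −0.04 and −0.17, which shows no sign of pairing. The labels do not say what the number stands for, and so few arrays cannot exclude a pairing or a shared batch. Alternatives were the deposited scale, median scaling, no filter, only the groups compared, a replicate block, Myl7 as covariate, leaving out arrays with high Myl7 or a high actin 3′ to 5′ difference, array clusters as a block, and leaving out each array; the fits of the lists and of the difference beyond 80 mg/kg without 10 mg/kg 6 h replicate 5 were added after seeing the data.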

Additional observations from a re-analysis of the deposited data

Results flagged for a closer look

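In 9 of 80 groups of 5 arrays, 1 array lay far from the others by Dixon's test, where chance flags about 1 in 20 groups. Of these, 3 are the same array, 10 mg/kg 6 h replicate 5: Rbp7 at 7.43 (nearest other array 10.34), Fabp4 at 11.66 (nearest 12.66) and Gpihbp1 at 7.24 (nearest 8.90). Another 2 are 10 mg/kg 24 h replicate 1, with Fabp4 at 12.28 (nearest 12.07) and Gpihbp1 at 7.72 (nearest 8.13), the first high and the second low. At 24 h Per1 was at 7.16 in replicate 3 and at 4.80 or less in the other 4, and Cry2 was at 6.64 in replicate 5 and at 7.51 or more in the others. At 6 h Slc41a3 was at 8.20 in replicate 3 (nearest 8.85) and Bhlhe41 at 9.43 in replicate 1 (nearest 9.02). The calls of Slc41a3 and Bhlhe41 held without these arrays.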

How the results depend on the processing

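Leaving out 1 array at a time gave 5 to 21 calls for 24 h against 6 h at 10 mg/kg, 0 to 1 for that difference beyond vehicle, 23 to 115 in vehicle (115 without vehicle 6 h replicate 3, 23 without replicate 6, 64 without vehicle 24 h replicate 2 and 26 without replicate 4) and 10 to 38 at 80 mg/kg. For 10 mg/kg against vehicle it gave 0 to 2 at 24 h and 0 to 6 at 6 h. At 10 mg/kg the calls between times numbered 0 on the deposited scale, 6 with median scaling, 14 with no filter, 11 with Myl7 as a covariate, 32 without arrays at a Myl7 level of 9 or more, 24 with array clusters as a block, 18 without arrays of high actin difference, 21 with clusters and Myl7 together (chosen after seeing the data) and 0 with only the groups compared. With the replicate number as a block they numbered 16, all among the 19, and 0 of 4 arrays at 24 h matched their own number best. Beyond vehicle the count was 5 without arrays of high Myl7 and 0 under the other settings. In vehicle it was 3 on the deposited scale, 26 with no filter, 25 without high Myl7, 16 without high actin difference and 2 with only the groups compared. At 80 mg/kg these were 4, 8, 5, 23 and 0, and median scaling gave 1 higher and 16 lower. At 6 h against vehicle, 1 was called on the deposited scale, 21 without high Myl7, 1 with clusters and 1 with clusters and Myl7; at 24 h 0 were called under all 10 settings. The median of all probe sets on the deposited scale moved by −0.35 beyond vehicle, 0.22 in vehicle, −0.44 at 80 mg/kg and −0.36 at 24 h against vehicle. The 13 called genes within the rule for names kept their direction under all 10 settings. Among them Slc41a3, Tfrc, Bmal1 and Bhlhe41 kept their call in 7 settings and Ptpn1 in 1.

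Some differences that had not passed the test turned round, and the cause was not tested. Between times at 10 mg/kg, Ucp3 was −0.030 on the deposited scale and −0.051 with clusters and Myl7, Nr1d1 −0.080 with clusters and Myl7, and without high Myl7 arrays Myl4 was 1.38, Sln 1.49, Bhlhe40 −0.30 and Per1 0.45. Beyond vehicle, the deposited scale gave Npas2 −0.38, Cry1 −0.27, Aqp1 −0.30, Pdk4 −0.31 and Nr1d1 −0.055, and median scaling gave Npas2 −0.13, Cry1 −0.011, Aqp1 −0.047 and Pdk4 −0.055. The replicate block gave Sln 0.069 and Pdk4 −0.099, and the Myl7 covariate Sln 0.42. Without high Myl7 arrays Tef was 0.34, Npas2 −0.037, Myl4 0.67, Sln 1.73, Nfil3 0.23 and Ucp3 0.20. The cluster block gave Bmal1 0.13, Tef 0.15 and Pdk4 −0.074, leaving out high actin arrays Bmal1 0.11, and clusters with Myl7 Bmal1 0.034, Tef 0.17, Sln 0.34 and Pdk4 −0.058. With 1 array left out, Ucp3 between times ran from −0.25 to 0.34, and beyond vehicle Cd36 ran from −0.39 to 0.093, Clock from −0.15 to 0.020, Cry1 from −0.016 to 0.21, Npas2 from −0.63 to 0.75, Pdk4 from −0.12 to 0.23, Per1 from −0.14 to 0.77, Sln from −1.34 to 0.26 and Tef from −0.13 to 0.10. The number of arrays limits all of these.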

Other observations

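Some genes outside the rule for names were read after their values were seen. Among the lipid synthesis genes, Elovl5 (a fatty acid elongase) differed by 0.30 between 24 h and 6 h at 10 mg/kg, with the smallest p of the list (unadjusted p = 0.000332, limma adjusted p = 0.172) and all 24 h arrays above all 6 h arrays. Fasn (fatty acid synthase) differed by 0.92, Sqle (squalene epoxidase) by 0.89, Srebf1 (the regulator SREBP-1) by 0.56, Acly (ATP citrate lyase) by 0.39 and Idi1 (isopentenyl diphosphate isomerase) by 0.34. Each had an unadjusted p under 0.05 and 0 passed the adjustment by limma; these are the 6 of the 19 measured members with such an unadjusted p, beside 592 of all 10557 genes (5.61%).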
